A study of Triticum aestivum with 27 samples.

Results

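The white-grained variety Baipimai was compared with the red-grained variety Shengsimai after 48 h of a sprouting treatment, with 3 RNA-seq libraries on each side. All genes that reached 1 FPKM (fragments scaled for transcript length and library size) in at least 3 of these 6 libraries were compared, which gave 53681 of the 153699 genes in the table. The study followed the transcriptome of wheat spikes through a test for pre-harvest sprouting, in Baipimai, Shengsimai and the white-grained variety Zhoumai18 at 0, 48 and 96 h, and the 27 libraries fall into 9 groups of 3. Spikes were cut at the wax-ripening stage, soaked in water and moved to 22 °C and 95% relative humidity, and the 0 h spikes were frozen straight after the soak, so the controls of both varieties had been wetted too. In the study's sprouting tests Shengsimai was highly resistant to sprouting in both seasons, whereas Baipimai was highly resistant in one and moderately resistant in the other. Each library was made from a spike that served as a biological replicate, so p-values measure the spread between spikes of 1 variety and not between varieties of 1 grain colour. With 1 variety of each colour, grain colour and every other difference between the varieties cannot be told apart. The number in the Baipimai library names belongs to another white-grained variety in the study's variety list, and the variety name follows the labels.

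Sprouting in the spike starts when a ripe grain takes up water and its dormancy is too weak to hold germination back. Abscisic acid and the transcription factors that act with it keep the embryo dormant, while gibberellin induces the enzymes that break down starch, protein and cell walls of the endosperm. Red grain colour comes from flavonoid pigments of the seed coat, whose genes are switched on by Tamyb10, and red wheats are as a rule more dormant than white ones. A spike also holds glumes, rachis and seed coats, so a bulk library mixes many tissues, and fewer cells of a type and less RNA per cell cannot be told apart.

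The libraries held 48245068 to 55765523 counts each. Correlations of log2(CPM + 1) were 0.987 to 0.995 between libraries of 1 variety and 0.812 to 0.826 between varieties, where CPM is the count relative to library size on the TMM scale. The most abundant 50 genes took 13.4% to 13.8% of the counts in Baipimai and 18.7% to 19.1% in Shengsimai. Of the genes compared, 49712 to 50572 reached 1 FPKM in a Baipimai library and 47047 to 47262 in a Shengsimai library.

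At 48 h the transcriptomes of both varieties were far apart, and the large differences leaned towards Baipimai. By edgeR's quasi-likelihood test with Benjamini-Hochberg adjustment, 35542 of the 53681 genes (66.2%) differed at an adjusted p under 0.05, 17945 higher in Baipimai (33.4%) and 17597 lower (32.8%). Across all 68658 genes tested the share was 61.7%. At least 2-fold apart were 12132 of these genes (22.6%), of which 8154 were higher in Baipimai (15.2%) and 3978 lower (7.41%). At 8-fold or more there were 4127 (7.69%), of which 2711 were higher (5.05%) and 1416 lower (2.64%), and at 32-fold or more 1442 were higher and 1061 lower. The called differences under 2-fold leaned to Shengsimai, with 9791 genes higher and 13619 lower in Baipimai, while those of 2-fold or more were 2.05 times as often in favour of Baipimai. The median size of a difference was 0.467 on the log2 scale. The filter was passed through Baipimai alone, with no Shengsimai library at 1 FPKM, by 5111 of the genes (9.52%) and through Shengsimai alone by 2366 (4.41%), and such genes lean to that variety by the way they were chosen. That ratio ran from 1.86 to 2.99 under the other scalings, filters and tools and without each library in turn. At 0 h it was 1.64, with 5480 genes higher in Baipimai (10.2%) and 3350 lower (6.24%), and at 96 h it was 1.08, with 6885 higher (12.8%) and 6375 lower (11.9%). The 3 libraries of one variety all lay above those of the other for 35.9% of the genes in favour of Baipimai and for 35.2% in favour of Shengsimai.

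**Figure D1:**
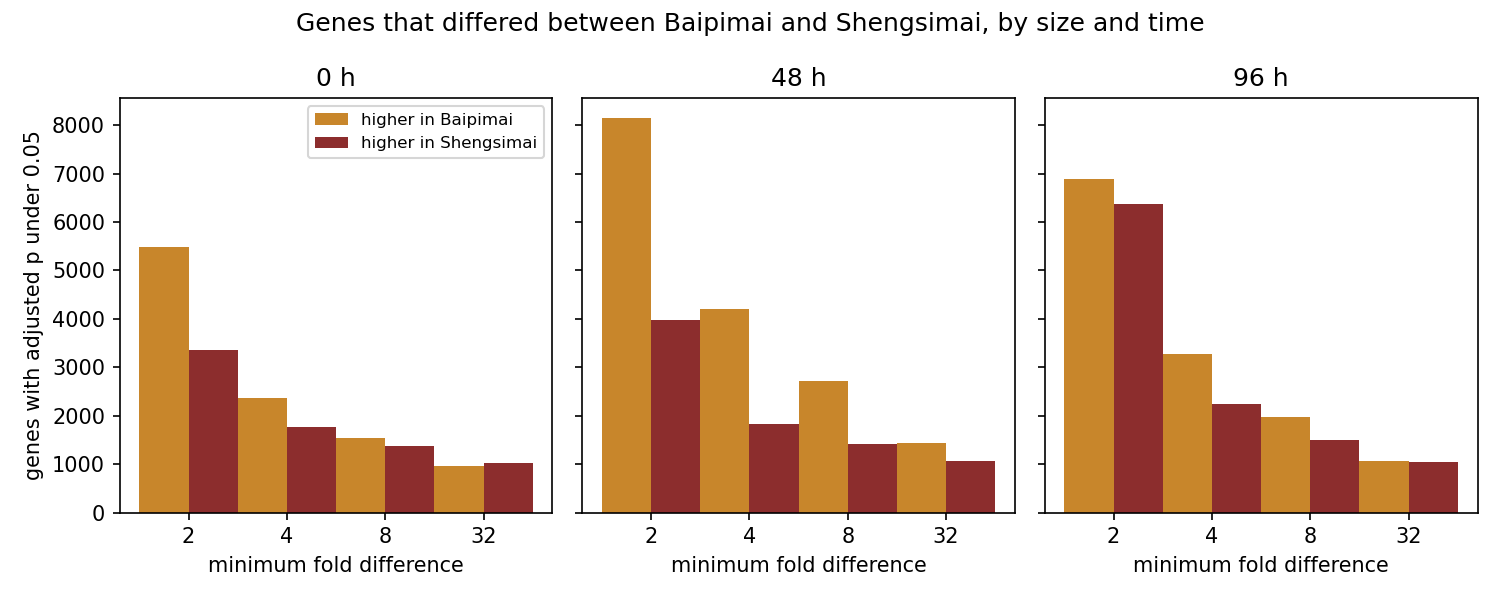
Number of genes with an adjusted p under 0.05 (vertical axis) by the smallest fold difference counted (horizontal axis), higher in Baipimai or higher in Shengsimai, in a panel for each time of the treatment. At 48 h the bars for Baipimai stand at 8154 against 3978 at 2-fold and at 2711 against 1416 at 8-fold, while at 96 h the 2-fold bars are 6885 and 6375.

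The benzoxazinoid beta-glucosidases, which release defence compounds of young cereal tissue from stored glucosides, gave the widest difference among genes with a name in the table. All 3 compared members of this list passed the filter through Baipimai alone, so their direction was fixed by it. Taglu1b (TraesCS2B01G599800) stood at 104, 90.4 and 113 CPM in Baipimai and at 0 counts in every Shengsimai library, at least 5643-fold higher when Shengsimai is set to 3 counts in all, the floor used for each such bound. Taglu1c (TraesCS2D01G594400) was at 62.3, 90.5 and 70.5 CPM in Baipimai, and its 12827 counts there stood against 4 counts in Shengsimai. TaGlu1d (TraesCSU01G036600) was at 20.7, 30.4 and 25.2 CPM, and all 13 of its counts in Shengsimai came from replicate 2. None of these genes overlapped between the varieties, which the filter had fixed too. They are near-identical copies, so the reads of single copies are uncertain. At 0 h the 152 counts of Taglu1b and the 94 of Taglu1c in Baipimai came from a single library, and the other spikes had 0 counts. In Zhoumai18 the mean at 48 h was 2.15 CPM for Taglu1b, 2.06 CPM for Taglu1c and 135 CPM for TaGlu1d, and at 96 h it was 1093, 718 and 1295 CPM.

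OXO1, an oxalate oxidase of the germin family that makes hydrogen peroxide in the cell wall, was present in Baipimai almost alone. OXO1 (TraesCS4D01G030700) measured 24.8, 21.6 and 25.2 CPM in Baipimai against 0, 0.037 and 0 CPM in Shengsimai, where it had 2 counts in all. Its ratio was 1969 with a counting interval of 545 to 16270. The peroxidase gene prx (TraesCS2A01G573900) was at 28.5, 24.9 and 27.6 CPM in Baipimai and had 4 counts in Shengsimai, all in replicate 2. Both genes passed the filter through Baipimai alone, so their direction and the lack of overlap were fixed by it.

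**Figure D2:**
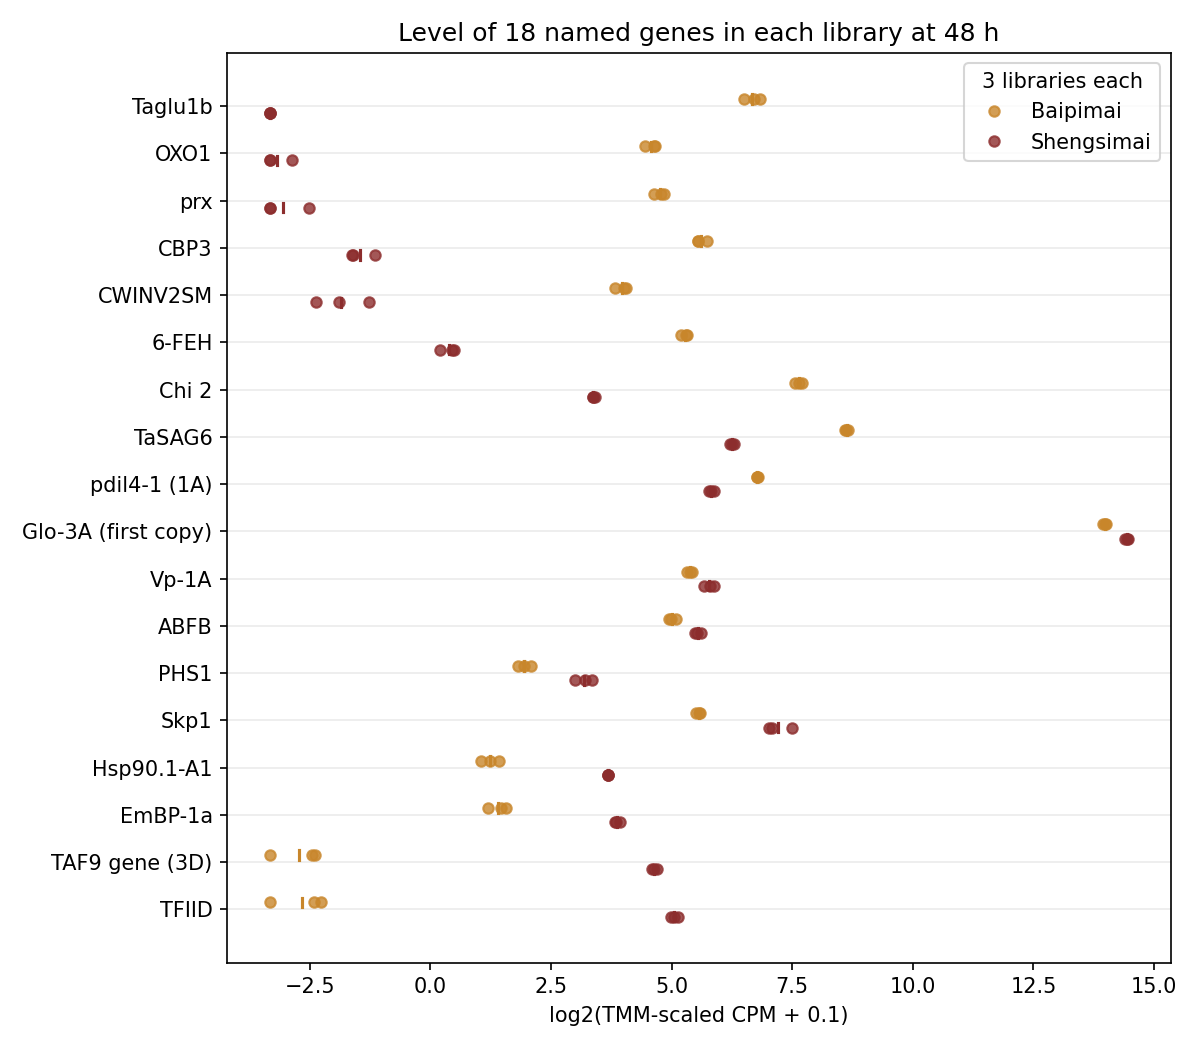
Level of 18 named genes at 48 h on the log2(CPM + 0.1) scale (horizontal axis), with a point for each of 3 Baipimai and 3 Shengsimai libraries and a bar at the mean of each variety. In all 18 genes the points of one variety lie apart from those of the other, and genes with 0 counts sit at the left edge. The 18 were picked from the named genes, and for many of them the filter or the rule for naming fixed this. Of all genes compared, 35.9% lay apart in favour of Baipimai and 35.2% in favour of Shengsimai.

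Genes of hydrolases that germinating grains use were called higher in Baipimai more often than lower, which the filter partly set. Of 10 compared genes in this list, 7 were higher, 1 was lower and 2 did not pass the test, beside 33.4% higher and 32.8% lower over all genes compared. The median log2 fold change was 1.10 against -0.015 over all, and 3 of the 10 passed the filter through Baipimai alone. These were CBP3, CWINV2SM and AInv, so they had to be higher there, and they enter both the count and the median. CBP3 (TraesCS6B01G050700), a serine carboxypeptidase of germinating cereal grain, measured 46.7, 46.7 and 53.2 CPM in Baipimai and 0.227, 0.352 and 0.226 CPM in Shengsimai (log2 7.50, SE 0.13, adjusted p = 1.11e-25). The cell wall invertase gene CWINV2SM (TraesCS4B01G356800) was at 16.6, 14.2 and 16.1 CPM against 0.314, 0.0926 and 0.169 CPM (log2 6.31, SE 0.22, adjusted p = 1.83e-19). That these 3 libraries of a variety lay apart from the others was fixed by the filter in both genes. AInv, an acid invertase, was higher by 3.30 (SE 0.20) on the log2 scale, a TaXTH4 copy on chromosome 6A, which encodes a cell wall xyloglucan enzyme, by 2.24 (SE 0.17) and Glc1 by 1.84 (SE 0.11). AMY4, an alpha-amylase gene, was at 7.58, 8.26 and 8.45 CPM in Baipimai and at 6.21, 6.19 and 6.52 CPM in Shengsimai, a log2 fold change of 0.36 (SE 0.10, adjusted p = 0.00223). The amylase groups did not overlap, but the difference was small beside those of the invertases. The call of Glc2 (log2 0.33, adjusted p = 0.0424) was lost without any one of the 6 libraries, at adjusted p values of 0.0549 to 0.109. TaXTH5 went the other way, at 76.7, 68.3 and 76.4 CPM in Baipimai and 116, 118 and 108 CPM in Shengsimai (log2 -0.63, SE 0.11).

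Both compared fructan genes passed the filter through Baipimai alone, so they could only be higher there. The compared starch genes not fixed in this way, Sbe2 and wSs2a-1, were lower. 6-FEH (TraesCS2A01G588300), a fructan exohydrolase that releases fructose from stored fructan, was at 40.0, 39.1 and 36.4 CPM in Baipimai and at 1.31, 1.06 and 1.26 CPM in Shengsimai (log2 4.99, SE 0.16, adjusted p = 2.23e-20). The fructosyltransferase gene 1-FFT-A on chromosome 4A was also higher, with 677 counts against 11 (log2 5.82, SE 0.39). Of 6 compared genes in the list 3 were higher and 2 lower, beside 33.4% and 32.8% of all genes compared. The 3 higher ones passed the filter through Baipimai alone and had to be higher. The lower ones make starch: the branching enzyme gene Sbe2 at 58.5, 54.6 and 54.5 CPM against 81.9, 78.9 and 71.2 CPM (log2 -0.47, SE 0.07) and the starch synthase gene wSs2a-1 with a log2 fold change of -0.76 (SE 0.11). Sbe1A, another branching enzyme gene, was higher by 1.18 (SE 0.14) on the log2 scale, a direction that the filter had fixed. GPI, a glycolytic isomerase gene, did not pass the test (log2 -0.008, SE 0.07).

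All 16 compared defence genes were higher in Baipimai, beside 33.4% of all genes compared, but 10 of the 16 passed the filter through Baipimai alone and had to be higher there, so neither this count nor the median log2 fold change of 4.62 is a result about the list. Over all 26 genes of the list, the filter apart, the summed FPKM was 507 to 551 in Baipimai and 34.2 to 38.0 in Shengsimai. Chi 2 (TraesCS2D01G033100), a chitinase gene, was at 210, 200.1 and 188 CPM in Baipimai and 10.2, 10.5 and 10.2 CPM in Shengsimai (log2 4.28, SE 0.10, adjusted p = 2.23e-23). A pair of Prx111-A peroxidase genes side by side on chromosome 2B had 1027 and 703 counts in Baipimai and 2 counts each in Shengsimai, ratios of 489 (135 to 4041) and 335 (92.3 to 2768). Of 4 compared glp2b copies on chromosome 4B, which encode germin-like proteins, the copy TraesCS4B01G377200 had 439 counts in Baipimai and 0 in Shengsimai, at least 139-fold higher. Prx109-C had 218 counts against 0, at least 69.2-fold higher. The smallest differences in the list were Chi 3 (log2 0.64, SE 0.17) and the lipid transfer protein gene WLTP1 (log2 0.66, SE 0.23), and the call of WLTP1 was lost without Baipimai replicate 3 or Shengsimai replicate 1 or 2, at adjusted p values of 0.0796, 0.0933 and 0.05. Of 26 genes in the list 10 were below the filter, among them a further glp2b copy with 138 counts in Baipimai and 7 in Shengsimai and TaMlo5 with 211 and 0. In the other direction glp2a had 0 counts in Baipimai and 12 in Shengsimai and the Hfr-1 copy on 7D had 0 and 2, and 5 genes had 0 counts in both varieties.

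The LTP2 genes, which encode lipid transfer proteins, had uneven reads over their copies. TraesCS3B01G062800 was at 34.8, 67.5 and 33.5 CPM in Baipimai and 1.90, 1.48 and 2.03 CPM in Shengsimai (log2 4.65, SE 0.22). TraesCS3B01G062900 was at 25.2, 0.798 and 23.2 CPM and TraesCSU01G213500 at 16.5, 0.69 and 15.7 CPM in Baipimai, so replicate 2 was high for the first copy and low for the others. The sum of the 3 copies was 76.5, 68.9 and 72.4 CPM in Baipimai and 4.40, 3.39 and 4.70 CPM in Shengsimai. The summed level was thus even among the Baipimai spikes and did not overlap with Shengsimai. Such a library far from its replicates was rare: in Baipimai replicate 2, 5 of the genes compared were over 10-fold below both other libraries that stood at 5 CPM or more.

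Genes named for dormancy or the response to abscisic acid leaned the other way, by less than 2-fold in all but EmBP-1a and PHS1. Of 10 compared genes 6 were lower in Baipimai, 2 were higher and 2 did not pass the test, beside 32.8% lower and 33.4% higher over all genes compared, with a median log2 fold change of -0.28. Vp-1A (TraesCS3A01G417300), a copy of the transcription factor that maintains embryo dormancy, was at 41.4, 39.9 and 42.8 CPM in Baipimai and 50.7, 58.6 and 55.2 CPM in Shengsimai (log2 -0.41, SE 0.06, adjusted p = 3.96e-06). ABFB, a bZIP factor that binds elements responsive to abscisic acid, was at 31.5, 34.1 and 30.6 CPM against 45.7, 48.8 and 44.9 CPM (log2 -0.54, SE 0.07). For both factors the highest Baipimai library lay below the lowest Shengsimai library. EmBP-1a (TraesCS5B01G470600), the bZIP factor first known from binding the promoter of the Em gene of ripening embryos, differed most, at 2.64, 2.89 and 2.20 CPM against 14.2, 14 and 15.1 CPM (log2 -2.49, SE 0.10, adjusted p = 7.08e-18). PHS1 on chromosome 7B was at 3.44, 4.16 and 3.73 CPM against 9.12, 10.1 and 7.86 CPM (log2 -1.26, SE 0.17), but this symbol is used for several genes and which of them it names here is uncertain. PER1, a peroxiredoxin of dormant seeds, was lower by a log2 fold change of -0.30 (SE 0.08), which limma on log2(FPKM + 1) put at -0.14 and did not call (adjusted p = 0.112). TaABI1, a phosphatase that dampens the response to abscisic acid, was also lower (log2 -0.25, SE 0.08, adjusted p = 0.00542), and its call was lost without Shengsimai replicate 3 (adjusted p = 0.0945) and by limma (adjusted p = 0.273). The 2 higher genes were HVA22L (log2 0.58, SE 0.18) and the SnRK2.4 copy TraesCS3A01G381100 (log2 0.58, SE 0.11), a protein kinase gene, whose copy on chromosome 3B did not pass the test (log2 -0.06, SE 0.09).

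Both compared genes of the gibberellin list passed the filter through Baipimai alone, so they could only be higher there. KAO-D, an oxidase gene of gibberellin synthesis, was at 2.41, 1.67 and 1.87 CPM in Baipimai and 0.872, 0.889 and 1.03 CPM in Shengsimai (log2 1.09, SE 0.28, adjusted p = 0.00153). GASR7, a member of a family named for its response to gibberellin, was at 1.97, 1.58 and 1.53 CPM against 0 counts, at least 92.6-fold higher. Neither gene overlapped between the varieties, which the filter had fixed too. At 0 h and at 96 h KAO-D stood the other way, with log2 fold changes of -1.63 and -0.80. Below the filter were GA2ox5-2, whose product inactivates gibberellin, with 80 counts in Baipimai and 30 in Shengsimai, TaKSL3 with 374 and 207, and a pair of TaCPS2 genes with 3 counts or fewer in each variety.

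Of the genes that make or control seed coat pigment, 4 could be found by symbol or in the study, and other copies and steps of the pathway were not looked at. Tamyb10-D as the study names it (TraesCS3D01G468400) had 0 counts in the 6 libraries and 1 in all 27, and Tamyb10-B1 had 0 counts in all 27. DFR, an enzyme gene of the pigment pathway, had 71 counts in the white-grained Baipimai and 0 in the red-grained Shengsimai, and CHS, the entry enzyme of flavonoid synthesis, had 3 and 0. None of these 4 genes reached the filter or was tested. OMT5, a methyltransferase gene of the list, was also below the filter, with 108 and 128 counts. Both compared genes of this list belong to lignin synthesis and were higher in Baipimai, beside 33.4% of all genes compared. COMT1 passed the filter through Baipimai alone, so it had to be higher there. It was at 5.38, 4.83 and 5.06 CPM against 0.785, 1.07 and 0.583 CPM (log2 2.64, SE 0.16). CAD was at 12.7, 11.2 and 11.7 CPM against 1.83, 2.06 and 1.82 CPM (log2 2.64, SE 0.11).

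Storage protein genes went in both directions. The embryo globulin genes Glo-3A, a pair of neighbours on chromosome 4A, took 3.43% to 3.58% of all counts in Baipimai and 4.29% to 4.53% in Shengsimai. The first copy, TraesCS4A01G296000, was lower in Baipimai by a log2 fold change of -0.46 (SE 0.08) and the second, TraesCS4A01G296100, by -0.51 (SE 0.09), and reads of the copies cannot be told apart with certainty. Of 10 compared genes in the list 7 were higher in Baipimai and 3 lower, beside 33.4% and 32.8% of all genes compared, and 4 passed the filter through Baipimai alone. The endosperm proteins among them were higher: the glutenin gene GluD3-3 at 15.8, 17.0 and 13.99 CPM against 4.43, 4.13 and 4.51 CPM (log2 1.84, SE 0.19, adjusted p = 2.35e-09), the avenin-like genes avnla (log2 2.75, SE 0.48) and avnlb (log2 1.94, SE 0.41), and the serpin genes WSZ1c (log2 2.36, SE 0.27) and WSZ2a (log2 2.34, SE 0.31). The avenin-like and serpin genes are the 4 that passed the filter through Baipimai alone, so they had to be higher there without overlap. In GluD3-3, which was not fixed in this way, all Baipimai libraries also lay above all Shengsimai libraries. Of the inhibitors, wali6 was higher (log2 0.92, SE 0.16) and wali3 lower (log2 -0.33, SE 0.11), the latter losing its call without Baipimai replicate 3 (adjusted p = 0.0511). The call of the xylanase inhibitor gene taxi-I (log2 0.22, adjusted p = 0.0289) was lost without Baipimai replicate 2 or Shengsimai replicate 1 or 2, at adjusted p values of 0.102, 0.0854 and 0.0536, and by DESeq2.

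Protein disulfide isomerases, which fold secreted and storage proteins in the endoplasmic reticulum, showed narrow and even differences. Of 8 compared genes 6 were higher in Baipimai, none was lower and 2 did not pass the test, beside 33.4% higher and 32.8% lower over all genes compared. The 3 pdil4-1 copies stood together, with log2 fold changes of 0.96 (SE 0.05) on 1A, 0.83 (SE 0.07) on 1B and 0.73 (SE 0.06) on 1D. The 1A copy was at 110, 111 and 109 CPM in Baipimai and 58.4, 54.5 and 56.1 CPM in Shengsimai. At 0 h the same copies had log2 fold changes of -0.13, -0.20 and -0.11. PDI2, the gene of this list with the highest FPKM, did not pass the test, at 361, 374 and 350 CPM against 363, 371 and 339 CPM (log2 0.02, SE 0.05, adjusted p = 0.825), but limma on log2(FPKM + 1) called it higher in Baipimai by 0.17 (adjusted p = 0.00678), and under RLE scaling its log2 fold change was -0.02.

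Of 7 compared cold and dehydration genes 4 were higher in Baipimai, beside 33.4% of all genes compared, and none was lower, but 3 of the 7 passed the filter through Baipimai alone and had to be higher. The dehydrin gene WCOR410 was at 10.4, 7.97 and 9.95 CPM against 0.331, 0.315 and 0.395 CPM (log2 4.76, SE 0.21, adjusted p = 5.13e-17), Wcor410c was higher by 5.26 (SE 0.24) and Wcor413 by 1.68 (SE 0.15) on the log2 scale. Wcor518 had 246 counts against 0, at least 78.0-fold higher. The cold regulator CBF6, Esi2 and P5CR, a gene of proline synthesis, did not pass the test. Of 5 senescence genes 3 were higher, beside the same 33.4%, led by TaSAG6 at 393, 406 and 389 CPM against 74.3, 77.9 and 75.8 CPM (log2 2.38, SE 0.06, adjusted p = 9.99e-22), while LLS1, which acts in the breakdown of chlorophyll, was lower by a log2 fold change of -0.36 (SE 0.11).

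Markers of dividing cells were also higher in Baipimai in 4 of 5 cases, beside 33.4% of all genes compared, and 3 of the 4 are copies of 1 tubulin gene. The 3 alpha-tubulin copies TUBA-4B had log2 fold changes of 0.56 (SE 0.09), 0.65 (SE 0.08) and 0.50 (SE 0.08) on 5A, 5B and 5D, and the cell cycle kinase gene cdc2TaA of 1.04 (SE 0.15). MYB3R1 did not pass the test (log2 0.17, SE 0.08, adjusted p = 0.0692), but was called without Shengsimai replicate 1 (log2 0.24, adjusted p = 0.0275) and by limma. The summed FPKM of the list was 248 to 262 in Baipimai and 142 to 163 in Shengsimai. Genes of green tissue were near their floor in both: the light-harvesting genes LHC Ib-21 had 17 and 25 counts in Baipimai and 40 and 30 in Shengsimai, RcaB had 0 and 2, and the sum for the list was 4.10 to 5.88 FPKM against 1.99 to 2.09 FPKM. The 1 compared gene of the list, GdcsH, was higher in Baipimai (log2 1.46, SE 0.22). The part of cell makeup in the other results was not tested. Both heat shock genes were lower in Baipimai. Hsp90.1-A1 was at 2.27, 1.96 and 2.57 CPM against 12.7, 12.8 and 12.7 CPM (log2 -2.48, SE 0.12, adjusted p = 4.31e-16), whereas the call of Hsp90.1-B1 (log2 -0.31, adjusted p = 0.0206) was lost without Baipimai replicate 1 or 2 or Shengsimai replicate 3, at adjusted p values of 0.0516, 0.0511 and 0.147.

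Few genes with a symbol were lower in Baipimai by a wide margin. The gene with the symbol TFIID (TraesCS1B01G151700), that of a general transcription factor, was at 0.0887, 0.109 and 0 CPM in Baipimai and 31.9, 33.0 and 34.9 CPM in Shengsimai (log2 -8.97, SE 0.25, adjusted p = 2.09e-21), and in Zhoumai18 its mean was 2.91 CPM. TFIID passed the filter through Shengsimai alone, which fixed its direction and lack of overlap. Skp1, an adaptor of SCF ubiquitin ligases, was at 48.2, 47.5 and 45.5 CPM against 181, 136 and 130 CPM (log2 -1.66, SE 0.09), with Shengsimai replicate 1 above the others. The 8 other genes with a symbol at the head of this direction, EmBP-1a among them, were 1.59-fold to 5.62-fold lower in Baipimai. Larger values came from loci without a name. Triticum_aestivum_newGene_3080 had 15534 counts in Shengsimai and 0 in Baipimai, at least 5441-fold lower, and Triticum_aestivum_newGene_30039 had 12358 and 0, at least 4328-fold lower. In favour of Baipimai, Triticum_aestivum_newGene_42393 had 10527 counts and TraesCS7B01G492700 had 10464, both against 0, at least 3340-fold and 3320-fold higher. Each of these loci without a name passed the filter only through the variety that had reads, so its direction was fixed.

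A range of identifiers was taken for the sprouting locus QSS.TAF9-3D on chromosome 3D, by gene number and not by position. It holds 52 genes, of which 13 passed the filter. Of these 12 differed (92.3%, beside 66.2% of all genes compared), 5 higher and 7 lower in Baipimai, and 5 did so by 2-fold or more. Among the latter, TraesCS3D01G468500, TraesCS3D01G468600 and TraesCS3D01G469100 passed the filter through Shengsimai alone and TraesCS3D01G467200 through Baipimai alone. These had to differ, so the counts for the range are partly set by the filter. The study counted 7 differing genes at the locus for this comparison, with its own processing and set of genes. The gene that the study describes as encoding TAF9, a subunit of the TFIID complex (TraesCS3D01G468500), was at 0, 0.0907 and 0.0814 CPM in Baipimai and 26.0, 24.8 and 23.9 CPM in Shengsimai (log2 -8.69, SE 0.40, adjusted p = 9.55e-17). TraesCS3D01G468600 and TraesCS3D01G469100 had 0 counts in Baipimai and 283 and 325 in Shengsimai, at least 99.1-fold and 114-fold lower. In Zhoumai18 at 48 h the means of these genes were 0.0123, 0 and 0 CPM. They were thus near 0 or at 0 in both white-grained varieties and present in Shengsimai. The study lists Baipimai and Shengsimai with the same haplotype (TT) at the marker of this locus and Zhoumai18 with the other (CC). As labelled, these levels did not follow the listed haplotype. The variety whose number the Baipimai libraries carry is listed as CC, and which variety they are was not tested. TraesCS3D01G467200 was higher in Baipimai, with 521 counts against 8 in Shengsimai (log2 5.89, SE 0.51). The RING-type ubiquitin ligase gene TraesCS3D01G466100 was at 25.4, 24.4 and 26.4 CPM against 45.8, 44.4 and 40.3 CPM (log2 -0.78, SE 0.08, adjusted p = 2.02e-09), without overlap.

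The surplus of genes higher in Baipimai was spread over the genome. On each of the 21 chromosomes more genes were at least 2-fold higher than lower. The share higher ran from 14.1% on 5B to 18.6% on 2B and the share lower from 3.03% on 3D to 7.43% on 2B. The A, B and D genomes had 2357, 2452 and 2345 genes higher, and 743, 847 and 560 lower. Loci outside the reference annotation, which the table calls newGene, had the reverse balance: 896 of 9877 (9.07%) were at least 2-fold higher in Baipimai and 1749 (17.7%) lower, with a median log2 fold change of -0.40. Reference identifiers alone gave 7258 higher and 2229 lower (16.6% and 5.09%).

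**Figure D3:**
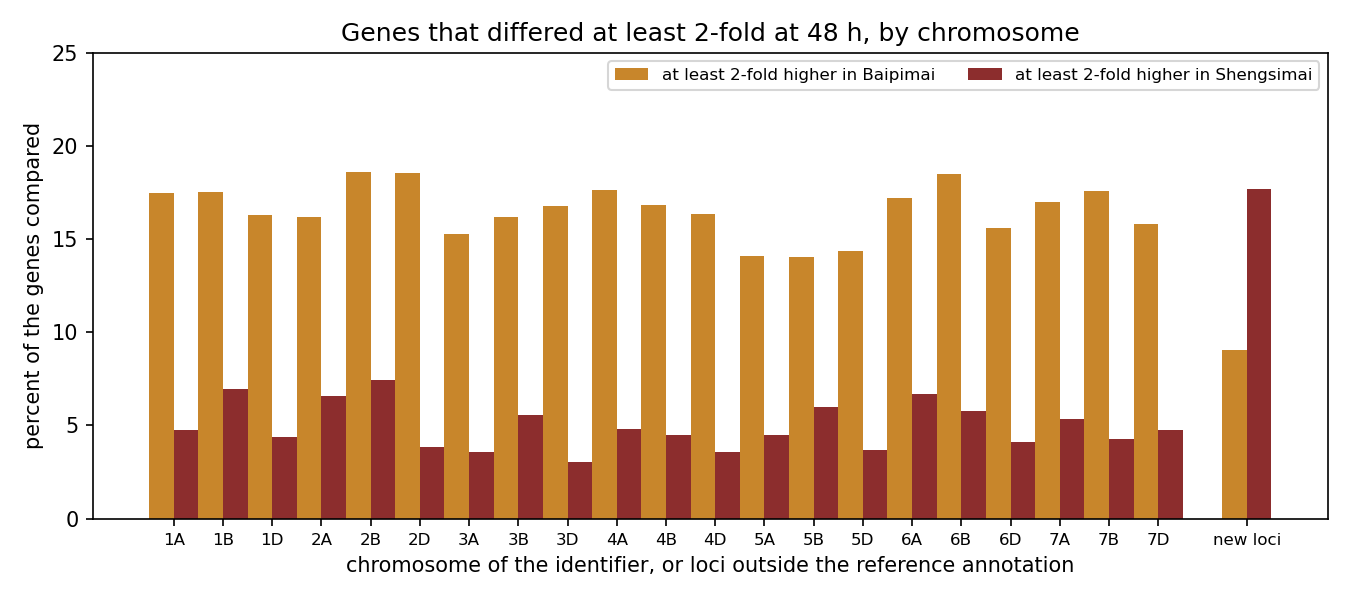
Percent of the genes compared that were at least 2-fold higher in Baipimai or in Shengsimai at 48 h (vertical axis), by the chromosome in the gene identifier and, at the right, for loci outside the reference annotation (new loci). The bars for Baipimai are taller on all 21 chromosomes, and the new loci show 9.07% against 17.7%.

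Bread wheat carries most genes as copies on its A, B and D genomes, and genes higher in Baipimai were often higher in all copies. Among 1715 sets with 1 copy on each genome under 1 symbol, 381 had a copy at least 2-fold higher in Baipimai and none lower. In 172 of these (45.1%) all 3 copies were higher. In contrast, of 103 sets with a copy lower and none higher, all 3 copies were lower in 7 (6.80%), and in 77 it was a single copy. Reads of near-identical copies may be shared by the counting, and its part in these shares was not tested.

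Many of the widest differences were of presence against absence. A gene with at most 3 counts over the 3 libraries of a variety is called off there. Of the genes compared, 897 were off in Shengsimai and 692 in Baipimai. These genes passed the filter only through the other variety, so they had to differ. Of the 692 off in Baipimai, 576 (83.2%) were off there at 0, 48 and 96 h, and 489 were new loci. Of the 897 off in Shengsimai, 549 (61.2%) were off at all times and 300 were new loci. Among the former 322 were also off in Zhoumai18 at 48 h, and among the latter 224.

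Genes off in Shengsimai also lay side by side. In the order of identifiers there were 7 runs of 4 or more neighbouring compared genes off in Shengsimai and none off in Baipimai. Only reference identifiers placed on a chromosome were used for runs. Of the reference identifiers, unplaced ones included, 597 were off in Shengsimai and 203 in Baipimai. The part of this gap in the number of runs was not tested. Runs of 3 or more genes numbered 26 and 6. The longest, TraesCS3D01G453800 to TraesCS3D01G455700 on 3D, held 8 genes with 0 counts in Shengsimai at all times, while Baipimai had 4937 counts and Zhoumai18 4479. A run on 4A from TraesCS4A01G466000 to TraesCS4A01G468200 held 7 genes with 0 counts in Shengsimai at all times and 4983 in Baipimai. Others changed with time. The 6 genes from TraesCS4D01G031700 to TraesCS4D01G032200, close to OXO1 by number, had 28 counts in Baipimai at 0 h, 9500 at 48 h and 887 at 96 h, and 2, 0 and 198 in Shengsimai. On 6B the 4 genes from TraesCS6B01G081800 to TraesCS6B01G082500 went from 10 to 1176 to 318 counts in Baipimai and from 5 to 0 to 212 in Shengsimai.

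Genes higher and genes lower in Baipimai stood differently at the other times. Of all genes compared, 53.1% were called at 0 h (26.1% higher and 27% lower in Baipimai) and 66.4% at 96 h (32.1% higher and 34.4% lower). Of the 1416 genes at least 8-fold lower in Baipimai at 48 h, 96.1% were called in the same direction at all times, and the median log2 fold change was -7.10 at 0 h, -8.24 at 48 h and -7.88 at 96 h. Of the 2711 genes at least 8-fold higher, 51.0% were called in the same direction at 0 h, 80.1% at 96 h and 44.7% at all times, with medians of 2.32, 5.24 and 3.09. Of the 1416 genes 907 were loci outside the reference annotation, and of the 2711 it was 514, beside 9877 of the 53681 compared. The part of these loci in the contrast between the directions was not tested. In these 2711 genes the median level in Baipimai was 0.375 CPM at 0 h, 3.51 CPM at 48 h and 2.07 CPM at 96 h, and in Shengsimai it was 0.0359, 0.0716 and 0.20 CPM. In Zhoumai18 it was 0.259, 1.06 and 3.87 CPM. The median of these genes was thus low in all varieties at the start, highest at 48 h in Baipimai and highest at 96 h in Zhoumai18, while Shengsimai stayed below both. The genes were chosen at 48 h, so their peak at that time in Baipimai and the size at 48 h are partly set by the choice. On the log2(CPM + 0.1) scale Zhoumai18 at 48 h lay nearer to Baipimai for 1552 of the 2711 genes (57.3%) and for 674 of the 1416 (47.6%).

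**Figure D4:**
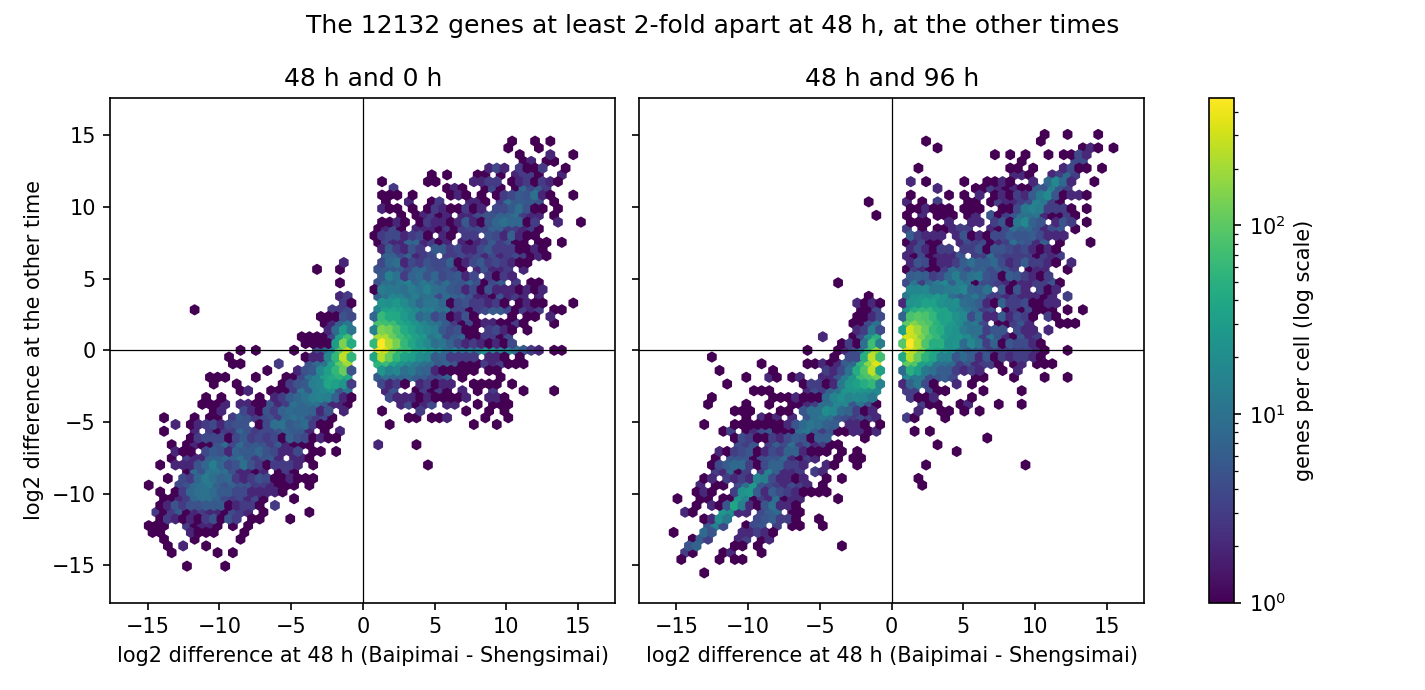
The log2 fold change of Baipimai over Shengsimai at 48 h (horizontal axis) and at 0 h or 96 h (vertical axes) for the 12132 genes at least 2-fold apart at 48 h, with colour for the number of genes in each cell on a log scale. Genes far lower in Baipimai at 48 h lie mostly below 0 at both other times, while many of those far higher lie near 0 at 0 h. Genes close to 2-fold at 48 h scatter to both sides of 0.

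The change of the difference between times was tested as an interaction. The difference between the varieties changed from 0 to 48 h for 26327 genes (49%), 13586 towards Baipimai (25.3%) and 12741 towards Shengsimai (23.7%), and from 48 to 96 h for 27782 (51.8%), 12840 towards Baipimai (23.9%) and 14942 towards Shengsimai (27.8%). OXO1 had the largest change from 0 to 48 h among named genes that passed this test, 8.84 on the log2 scale from 0 to 48 h and -9.27 from 48 to 96 h. In Baipimai its mean was 0.0683 CPM at 0 h, 23.9 CPM at 48 h and 0.67 CPM at 96 h, and in Shengsimai it was 0.018, 0.0124 and 0.255 CPM. The level in Zhoumai18 was 0.777 CPM at 48 h and 44.5 CPM at 96 h. CBP3, by contrast, was apart at each time, with log2 fold changes of 6.31, 7.50 and 4.38. EmBP-1a, at a mean of 32.2 CPM in Baipimai and 105 CPM in Shengsimai at 0 h, was lower in Baipimai at the other times too, with log2 fold changes of -1.71 at 0 h and -1.50 at 96 h. Vp-1A did not pass the test at 0 h (log2 -0.13, adjusted p = 0.0916) and had a log2 fold change of -0.64 at 96 h. The glutenin gene GluD3-3 was 6.71 higher on the log2 scale at 0 h and 1.84 at 48 h, as its mean in Shengsimai went from 0.258 to 4.36 CPM.

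**Figure D5:**
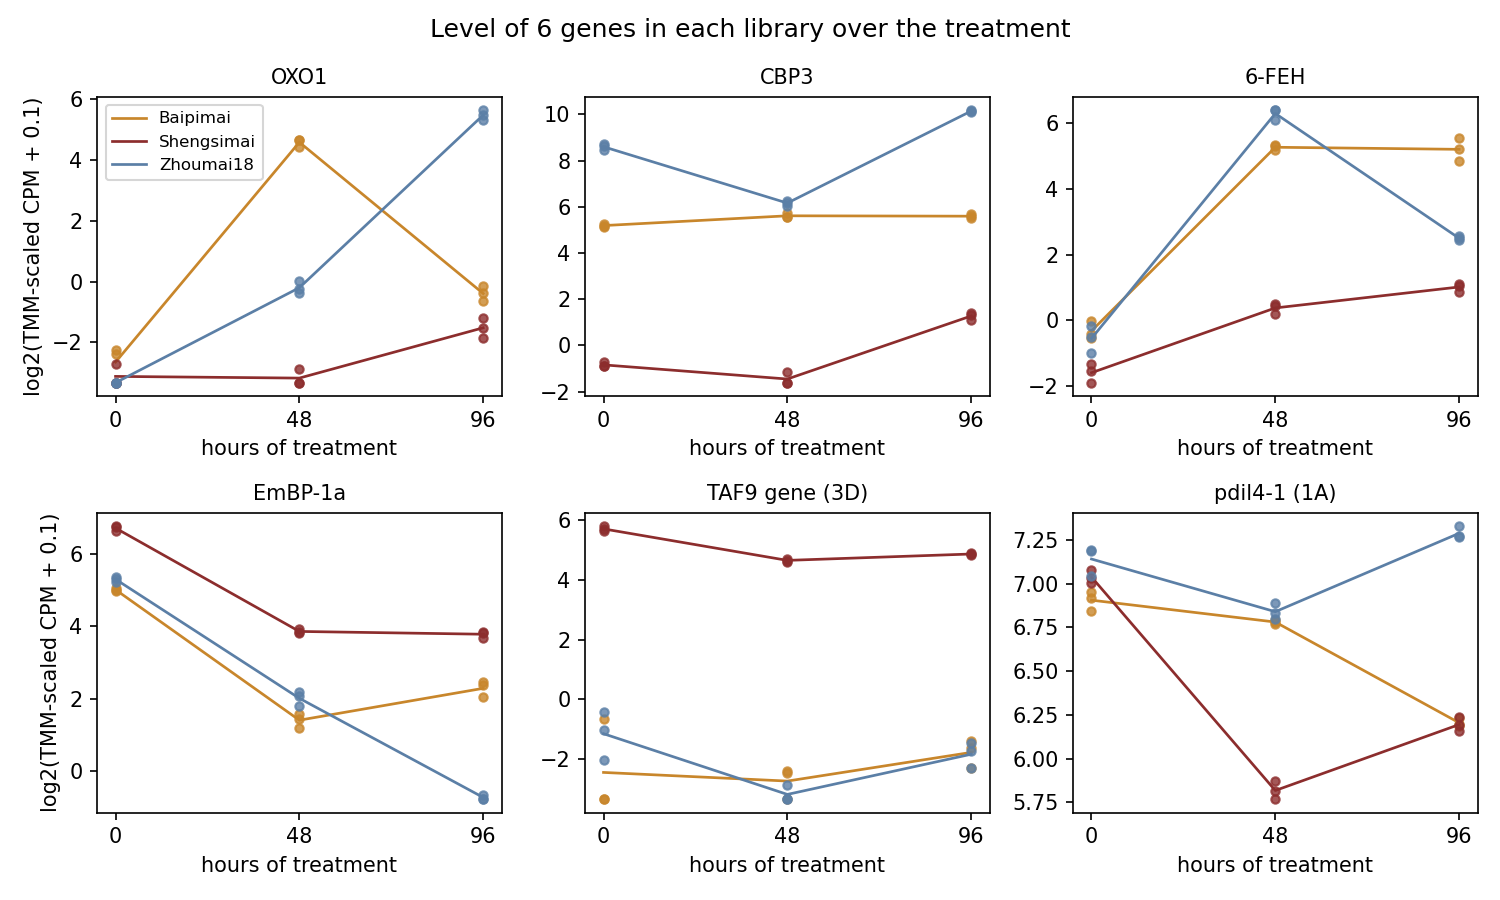
Level of 6 genes on the log2(CPM + 0.1) scale (vertical axes) at 0, 48 and 96 h of treatment (horizontal axes), with a point for each library and lines through the means of Baipimai, Shengsimai and Zhoumai18. OXO1 peaks at 48 h in Baipimai at 23.9 CPM and is highest in Zhoumai18 at 96 h, and the TAF9 gene of chromosome 3D is high in Shengsimai alone at each time.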

How the data were processed

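Variety, time and replicate of each library follow the deposited labels. The sequencing company made the values, and the aligner, the counter and the genome build are not given in the sources used here. The authors deposited counts that are raw and FPKM values, scaled for gene length and library size, in 1 table, from which 1 malformed line was left out. A table of resistance classes in words was read only for the description of the varieties. FPKM served for the filter, for summed levels and for limma. Counts were scaled by TMM (factors 1.04 to 1.16 in the 6 libraries) and fitted with edgeR 4.0.16 (R 4.3.3) in 1 quasi-likelihood model of 27 libraries and 9 group means, with 18 residual degrees of freedom, over 68658 genes at 1 FPKM in at least 3 libraries. Benjamini-Hochberg adjustment ran over all of them at a threshold of 0.05. Standard errors were derived from the F statistic. On simulated data the test recovered 93 of 100 genes changed 2-fold and 99 of 100 changed 4-fold. Beside these stood 19 false calls among 68658 genes in the comparison of Baipimai with Shengsimai at 48 h. No other gene differed in the simulation, and genes of very low level were not changed. In the data 61.7% of the genes tested were called, a setting that was not simulated. Replicate pairs differed by more than sampling noise (chi-square per degree of freedom 4.37 to 9.43). Bounds and counting intervals (95%) cover counting error only.

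Gene names are the symbols of protein database hits in the table, since the names planned for could not be matched to its identifiers; 904 genes had a symbol that is not a locus number, 228 of them compared. The 14 lists were set by symbol and hold 126 genes, 87 of them compared. The genes compared and the lists were chosen with earlier results of these data known, and the lists were written once the names had been seen. Named genes are the list genes, region genes 2-fold apart and the 10 of highest FPKM. Up to 10 more in each direction had a name, at least 10 FPKM and no overlap between the varieties (2 without a name). At most 2 in each direction were added per change between times. Runs and sets of copies follow identifiers, and sets, off genes, summed LTP2 levels and genes below the filter were chosen after values were seen. The alternatives were other filters and scalings, DESeq2 1.42.0, limma 3.58.1 on log2(FPKM + 1) and log2(FPKM + 0.1), a fit without the other groups, a replicate block, a 2-fold minimum and leaving out each library. Reads of near-identical copies may be split between them.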

Additional observations from a re-analysis of the deposited data

Results flagged for a closer look

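The difference between Baipimai and Shengsimai was tested at 48 h against the other times. It changed from 0 to 48 h for 26327 genes and from 48 to 96 h for 27782. From 0 to 48 h it changed by 8.84 for OXO1, by 4.90 for the LTP2 copy TraesCS3B01G062800, by -4.87 for GluD3-3 and by -1.52 for xat1, a gene whose product decorates cell wall xylan, on the log2 scale. From 48 to 96 h it changed by 3.76 for NAC4, by 3.02 for CBF6, by -9.27 for OXO1 and by -8.92 for prx. OXO1 had 2 counts in Shengsimai at 0 h and 2 at 48 h, so the size of its change depends on the prior count of the fit. NAC4 was at a mean of 51.9 CPM in Baipimai and 0.827 CPM in Shengsimai at 96 h.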

How the results depend on the processing

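The count of genes that differed at 48 h was within 1.5 times the 35542 under every alternative but the 2-fold minimum, which left 12132, with 11103 and 11389 for the changes from 0 to 48 h and from 48 to 96 h and 5 in the QSS.TAF9-3D range. That range gave 19 genes without a filter and 7 with 1 FPKM in all 6 libraries, since those settings test more or fewer genes. Runs of neighbouring genes numbered 32 at a length of 3 or more and 5 with 0 counts as the limit. Leaving out 1 library at a time gave 32897 to 34280 genes at 48 h, 24438 to 26321 and 26060 to 27220 for the changes, and 11 to 12 in the range. Same-numbered libraries of both varieties correlated in their deviations at 0.04, 0.17 and 0.15. Each was above its highest correlation with other numbers, at -0.013, -0.013 and -0.016. Whether the replicate numbers pair the libraries was not tested, and the main fit did not pair them. With the number as a replicate block the counts were 35558, 26293, 27799 and 12. Of 114 named genes, the 100 that were called kept their sign under every alternative that gave them a value (69 genes with 1 FPKM in all 6 libraries and 111 by DESeq2), while 10 of the 14 not called changed sign under at least 1. limma on log2(FPKM + 1) and log2(FPKM + 0.1) moved the median of the genes compared to 0.109 and 0.136, and the share of calls higher in Baipimai from 50.5% to 63.0% and 64.4%, while for the change from 48 to 96 h it went from 46.2% to 32.5% and 31.3%. The cause was not tested. Calls of named genes lost were 41 under the 2-fold minimum, 6 under each limma setting, 2 each by DESeq2, under RLE scaling and without a filter, 1 each under upper-quartile scaling and the replicate block, and 2 to 4 without 1 library. Calls gained were 5 and 3 under limma and 1 without Shengsimai replicate 1. Genes below a few counts in 1 variety have no stable fitted fold change, and their bounds or counts are the values to read.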

Other observations

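The 10 genes of highest FPKM with a name differed by at most 0.92 on the log2 scale between the varieties at 48 h. UES was at 996, 1072 and 999 CPM in Baipimai and 1010, 1015 and 1031 CPM in Shengsimai (log2 0.005, SE 0.10). ha1 was at 558, 551 and 591 CPM against 635, 655 and 648 CPM (log2 -0.19, SE 0.06, adjusted p = 0.00761), and TaGRP2 at 229, 255 and 185 CPM against 320, 314 and 337 CPM (log2 -0.54, SE 0.10). The call of the inhibitor gene wrsi5-1 (log2 0.34, adjusted p = 0.0166) was lost without replicate 2 of Baipimai or of Shengsimai, at adjusted p values of 0.055 and 0.1.

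Single libraries far from both replicates were few among the 53681 genes. In Baipimai replicate 3, 5 genes at 5 CPM or more were over 10-fold above both other libraries, and in Shengsimai replicate 1 there were 4.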
